A study of Homo sapiens with 10 samples.

Results

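Cr_small lines are BEAS-2B cells that were exposed to chromate and then grown out of small soft agar colonies. They were compared with control lines, which came from colonies that arose without chromate. The comparison covered the 3 arrays titled as small-colony chromium transformed lines and the 3 titled as control lines, 6 of the 10 arrays in all, and described every gene on the array. BEAS-2B is an established line of immortalized human bronchial epithelial cells, and each line was measured once on an Affymetrix Human Gene 1.0 ST array. The labels give the chromate cells 0.5 µM potassium chromate for 30 days and 3 weeks in soft agar, but they carry that same text for the control and parental arrays, so the groups were read from the titles and cell type labels. Per the study's description, small chromate colonies were picked to be close in size to the control colonies. Each line started from 1 colony and no repeat of the exposure is described, so that a p-value here reflects how much lines differ from each other and not how much exposures do. The other 4 arrays were 3 Cr_large lines, grown from large chromate colonies, and 1 of the parental BEAS-2B cells.

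Hexavalent chromium, as chromate, enters cells through anion transporters and is reduced inside them, which damages DNA, and it is an established lung carcinogen. Growth in soft agar, without a surface to attach to, is a common measure of transformation. Epithelial cells hold on to each other through desmosomes and other junctions and to the matrix through integrins, and transforming growth factor beta (TGF-β) is a main regulator of the matrix genes of such cells.

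Levels are log2 intensities, which ran from 4.32 to 14.05 over the 10 arrays, with the median at 5.86 and the 10th percentile at 4.60. A fold is a difference of group means taken back to the linear scale. A gene passed the test at an adjusted p under 0.05 from limma, a linear model fitted to all 28869 transcript clusters. At the level of genes, with 1 cluster for each, 926 of 18377 (5.04%) were higher in the Cr_small lines and 1097 (5.97%) were lower, 11% in all. At least 1.5-fold, 376 (2.05%) were higher and 624 (3.4%) lower. At least 2-fold, 112 (0.609%) were higher and 220 (1.2%) lower, and at least 5-fold 12 (0.0653%) were higher and 22 (0.12%) lower. The median log2 change over all genes was 0.03. RNA was taken from whole cultures, in which fewer cells with a transcript and less of it per cell cannot be told apart. The 3 Cr_small lines lay above all 3 control lines for 19.2% of the genes and below them for 14.5%. When each of the 6 lines was left out in turn, 319 of the 926 and 502 of the 1097 genes passed every time, as did 72 of the 112 and 168 of the 220 with at least a 2-fold change. Leaving out control_3 cost the most calls. Without it 73 of the 112 and 175 of the 220 genes passed, and over transcript clusters 475 passed higher and 703 lower, in place of 1093 (3.79%) and 1291 (4.47%). Over clusters, 435 (1.51%) rose and 728 (2.52%) fell at least 1.5-fold, and 126 (0.436%) and 256 (0.887%) at least 2-fold. A call is said to have held where it passed with each line left out in turn.

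**Figure D1:**
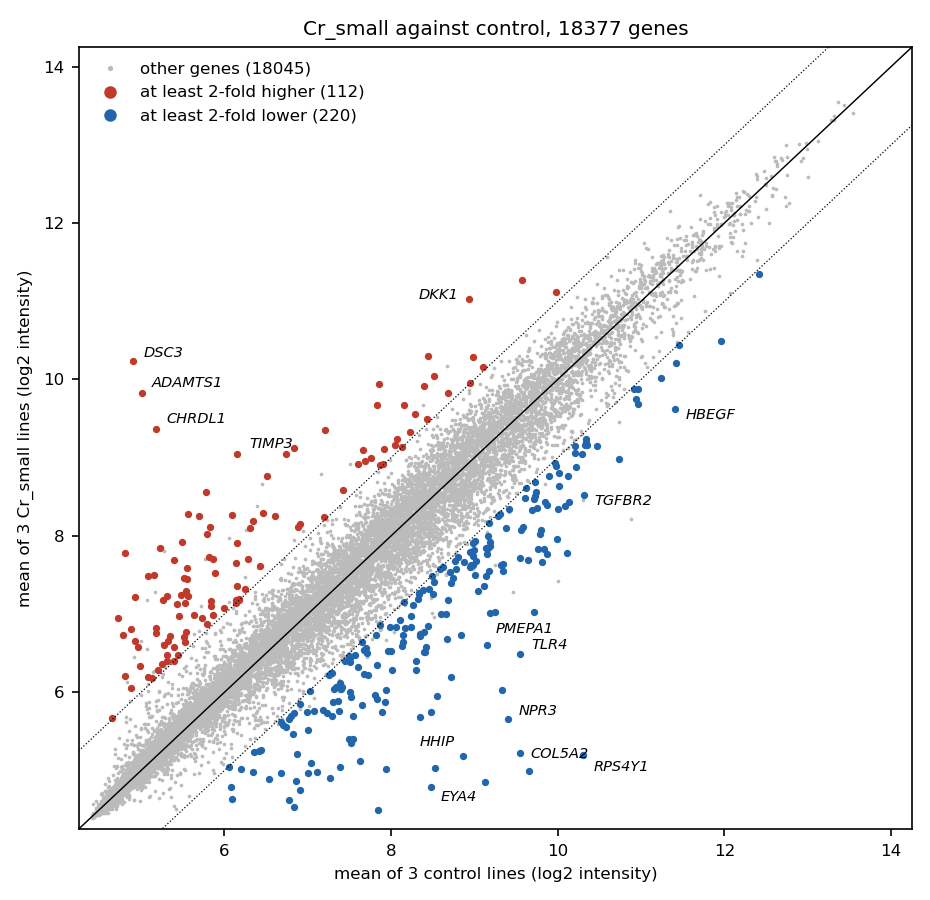
Mean level of each gene in the 3 control lines (x axis, log2 intensity) and in the 3 Cr_small lines (y axis, log2 intensity). Red and blue points are the 112 genes that passed the test at least 2-fold higher and the 220 at least 2-fold lower, grey points are all other genes, the solid line marks equal means and the dotted lines a 2-fold difference. Many of the red points sit over dim control means, while the control means of the blue ones spread over most of the range.

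Many of the genes at least 2-fold higher were dim in the control lines. Of the 112, 59 (52.7%) had a control mean under the median level of the arrays, and of the 220 that were lower 54 (24.5%) had a Cr_small mean under it. The Cr_small lines were about as alike as the control lines: over all clusters, the mean absolute log2 difference between 2 lines was 0.142 among the Cr_small lines, 0.137 among the control lines and 0.213 between a control and a Cr_small line. Among the control lines, control_2 stood apart, with 50 genes at least 2-fold above both other control lines, 27 of them small nuclear, nucleolar or Cajal body RNAs. Without it 198 of the 220 and 90 of the 112 genes still passed.

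Keratins 8 and 18, of simple epithelia, were high in all lines, while KRT5, a marker of basal airway cells, and the epithelial markers CDH1 and EPCAM were under the median level of the arrays. Not all markers of these lists were so low. Of 10 airway basal cell markers 4 had a mean under that level in each group, and of 18 epithelial state genes 12 did in the control and 11 in the Cr_small lines. KRT8 was at 11.95, 11.46 and 11.69 in control lines 1 to 3 and at 12.18, 12.47 and 12.42 in Cr_small lines 1 to 3. KRT5 lay between 5.44 and 5.54 in these 6 lines, CDH1, the epithelial cadherin, between 4.89 and 5.02, and EPCAM between 4.83 and 5.18. Vimentin, VIM, a filament protein of mesenchymal cells, was between 11.47 and 12.09. By limma none of the 13 club, goblet and ciliated cell markers, the 10 alveolar, the 12 endothelial and the 11 leukocyte markers passed the test (0, 3, 1 and 0 at an unadjusted p under 0.05), and 1 of the 12 fibroblast markers fell, FAP. The summed linear level of the leukocyte markers was 615 to 641 in the control lines and 630 to 683 in the Cr_small lines, that of the endothelial markers 430 to 434 and 447 to 448, and that of the fibroblast markers 3530 to 7879 and 3119 to 5869.

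The largest rise was in DSC3, a desmosomal cadherin. It was at 4.85, 4.90 and 4.96 in the control lines, at 10.38, 10.11 and 10.22 in the Cr_small lines and at 8.96 in the parental cells. All Cr_small lines lay far above all control lines, and the parental cells lay between but nearer to Cr_small. Its mean was 40.3-fold higher (log2 change 5.33, standard error 0.17, adjusted p = 8.62e-06, limma). DSC2, the neighbouring desmosomal cadherin gene on chromosome 18, went from 5.40, 5.70 and 5.58 to 8.69, 8.12 and 8.02, a 6.55-fold rise (adjusted p = 0.00176). PERP, a membrane protein of desmosomes and a target of p53, went from 6.16, 5.93 and 6.36 to 7.91, 7.59 and 8.22, a 3.38-fold rise (adjusted p = 0.00388). These were the 3 of 14 desmosome genes that passed, all held, and the median log2 change of the 14 was 0.00. DSP, desmoplakin, the protein that ties desmosomes to keratin, was at 9.63, 8.72 and 10.03 in the control lines and at 5.39, 8.30 and 8.16 in the Cr_small lines. The groups did not overlap, but Cr_small_1 stood well under the other Cr_small lines and the difference did not pass (adjusted p = 0.136). The promoter of DSC3 (chr18:31042693-31042992, minus strand) and that of EYA4 (chr6:133241107-133241406, plus strand), which fell 12.8-fold to the low end of the array, are shown for a strong rise and a strong fall. Both are from RefSeq for GRCh38.p14 and run from 250 bases before to 50 bases after the gene start, with CG dinucleotides, the site of DNA methylation, in capitals.
DSC3: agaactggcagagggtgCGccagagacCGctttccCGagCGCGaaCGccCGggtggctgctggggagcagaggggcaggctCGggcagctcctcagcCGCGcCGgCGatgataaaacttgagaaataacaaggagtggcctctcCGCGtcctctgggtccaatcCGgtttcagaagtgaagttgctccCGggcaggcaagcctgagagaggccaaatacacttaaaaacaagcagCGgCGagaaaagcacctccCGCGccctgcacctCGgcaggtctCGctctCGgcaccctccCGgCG
EYA4: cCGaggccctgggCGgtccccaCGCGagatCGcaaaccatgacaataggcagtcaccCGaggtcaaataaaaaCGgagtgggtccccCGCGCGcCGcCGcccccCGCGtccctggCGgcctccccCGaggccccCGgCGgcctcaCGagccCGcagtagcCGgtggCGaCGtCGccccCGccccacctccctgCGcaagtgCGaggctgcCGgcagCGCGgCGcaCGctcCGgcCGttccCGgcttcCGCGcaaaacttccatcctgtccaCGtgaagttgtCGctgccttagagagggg

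The stretches held 25 and 39 CG dinucleotides. Over the 14210 of the 18377 genes with such a promoter sequence, the median was 23, and 67.4% held at least 15. Among genes at least 2-fold higher the median was 24.5 in 90 promoters, of which 71.1% held at least 15, and among those at least 2-fold lower it was 23.5 in 178, of which 69.7% did. The shares were thus near that of all promoters. Methylation was not measured.

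Other junction and adhesion genes were called in both directions. Of all genes 5.04% rose and 5.97% fell, and the shares of the tight junction list, 4.35% and 8.70%, were near these. In the integrin list 12% rose and 28% fell. Of 23 tight junction genes, CLDN1, a claudin, rose 2.15-fold and TJP1 and MARVELD2 fell, but none of the 3 held (adjusted p up to 0.0918, 0.0657 and 0.136 with 1 line left out, the first and last without control_3 and the second without control_1). Of 14 adherens junction genes 2 rose and 1 fell and none held, of 6 hemidesmosome genes 1 fell, ITGB4 (1.51-fold, adjusted p = 0.101 without Cr_small_1), and of 9 gap junction genes none passed by limma (2 at an unadjusted p under 0.05). Of 25 integrin genes 3 rose and 7 fell, and 1 and 3 of these held. ITGAV, the alpha chain of several matrix receptors, was at 10.91, 10.55 and 10.93 in the control lines and at 9.94, 9.77 and 9.91 in the Cr_small lines, a 1.90-fold fall (adjusted p = 0.00278). ITGA4, the alpha chain of a fibronectin and VCAM1 receptor, went the other way, from 5.40, 5.31 and 5.33 to 6.90, 6.79 and 6.46, a 2.59-fold rise (adjusted p = 0.0081). Of 27 focal adhesion genes 4 fell, with a list median of -0.17, and TES, testin, a LIM protein of focal adhesions, fell 3.15-fold and held.

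**Figure D2:**
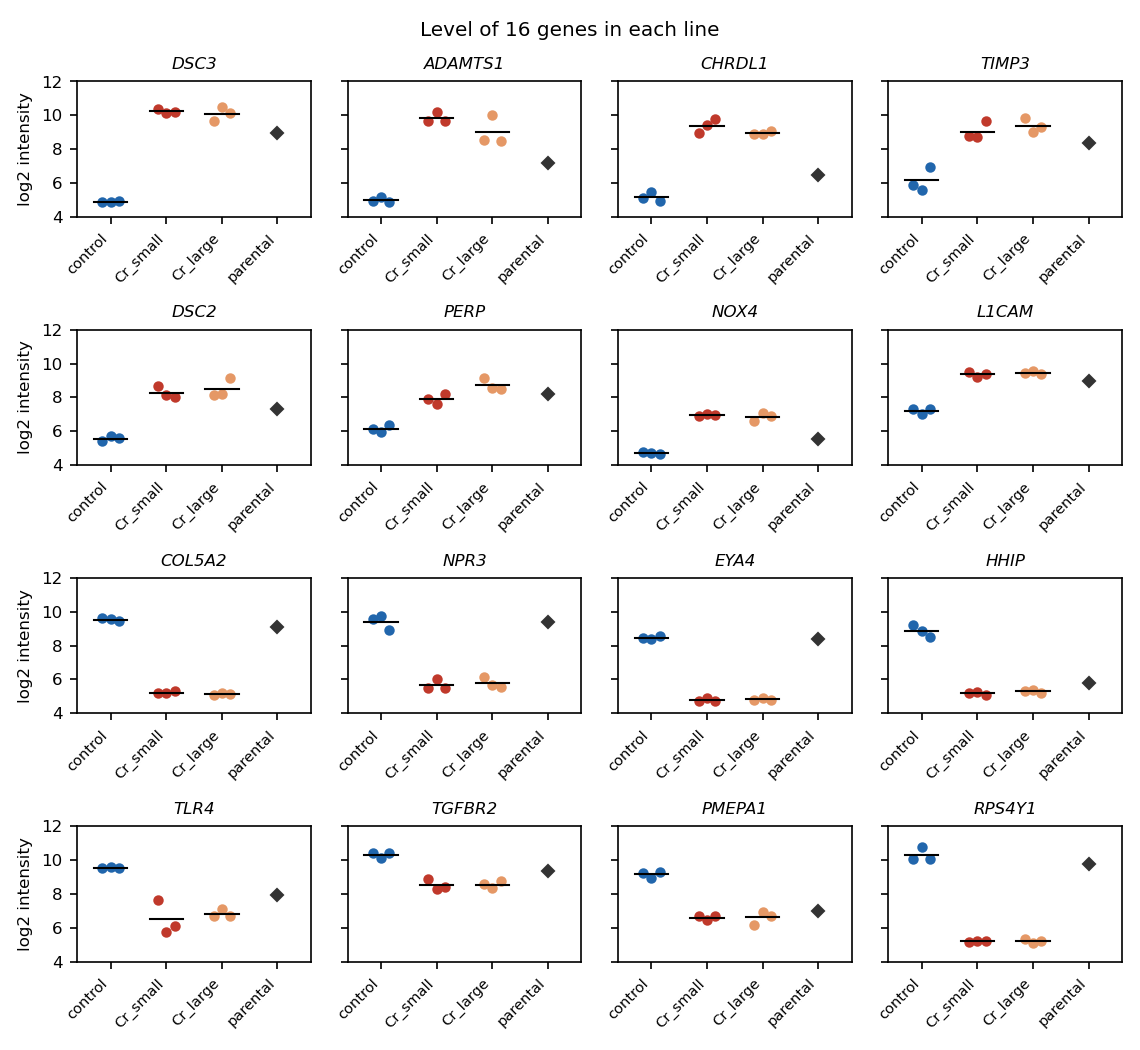
Level (log2 intensity) of 16 genes on all 10 arrays, by group. Each point is 1 array and the short lines are group means. For the 8 genes of the upper rows every Cr_small line lies above every control line, and for the 8 of the lower rows below.

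Matrix genes were among the strongest changes. COL5A2, a chain of type V collagen, which nucleates collagen fibrils, was at 9.63, 9.56 and 9.45 in the control lines and at 5.18, 5.17 and 5.30 in the Cr_small lines. The parental cells were at 9.11, with the control lines. The fall was 20.1-fold (log2 change -4.33, standard error 0.07, adjusted p = 1.08e-07). Of 20 fibrillar and associated collagens 3 fell and 2 rose. COL12A1, a fibril-associated collagen, rose 2.47-fold (adjusted p = 0.0506 without control_3), and COL8A1 fell 1.77-fold and held. BGN, the proteoglycan biglycan, fell 5.76-fold, from 9.06, 8.38 and 8.73 to 6.31, 6.14 and 6.14. It was the largest of 7 falls among 35 elastic fibre and matricellular genes, of which 4 held (BGN, ABI3BP, FBLN1 and LTBP2, by 3.03-fold to 5.76-fold), and the list median was -0.12. CCN3, a matricellular protein, rose 4.51-fold, but the call was lost without 5 of the 6 lines, with an adjusted p of up to 0.0958 without control_3. Among 17 laminin and basement membrane genes 4 fell and none rose, and COL4A1, the main chain of type IV collagen, fell 3.39-fold and held.

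The proteases that cut the matrix split. ADAMTS1, a secreted metalloprotease that cleaves proteoglycans, was at 4.95, 5.19 and 4.87 in the control lines, at 9.65, 10.17 and 9.65 in the Cr_small lines and at 7.15 in the parental cells. All Cr_small lines were above the parental level and all control lines under it, and the rise was 28.3-fold (adjusted p = 0.000478). ADAMTS5, the next measured gene on chromosome 21 and a protease of the same family, rose 5.32-fold, from 5.04, 5.14 and 5.06 to 7.69, 7.34 and 7.44 (adjusted p = 0.00698). TIMP3, a matrix-bound inhibitor of such proteases, rose as well, from 5.90, 5.61 and 6.94 to 8.78, 8.69 and 9.66, by 7.44-fold (adjusted p = 0.00525). Another, dimmer cluster of TIMP3 rose 2.37-fold, from a control mean of 5.02 to a Cr_small mean of 6.27 (adjusted p = 0.0429), so the size of this rise depends on the cluster. In contrast, MMP2, a gelatinase, fell from 7.38, 6.94 and 7.38 to 5.81, 5.54 and 5.85, by 2.83-fold (adjusted p = 0.00147). Of 32 matrix proteases and inhibitors 3 rose and 3 fell, and of these all rises and 2 falls held.

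Among genes of TGF-β signalling more fell than rose. TGFBR2, the type II receptor that binds the ligand, was at 10.39, 10.15 and 10.41 in the control lines, at 8.87, 8.29 and 8.41 in the Cr_small lines and at 9.36 in the parental cells. No Cr_small line reached the lowest control line, and the fall was 3.46-fold (adjusted p = 0.000961). TGFB1, the first of the ligands, fell 1.80-fold (adjusted p = 0.00502), and SMAD3, which carries the signal to the nucleus, 1.92-fold, a call lost without any of 4 lines (adjusted p up to 0.0642 without control_3). SMAD6, an inhibitor that the signal of bone morphogenetic proteins induces, fell 2.05-fold (adjusted p = 0.00511). In all, 7 of 25 ligands, receptors and mediators fell and 2 rose, with 4 and 2 that held and a list median of 0.00. Of 22 genes known to respond to TGF-β, 10 fell and 1 rose, against 5.97% and 5.04% of all genes, and 5 and 1 of these held. The study singled out TGF-β signalling on these same samples, so this list is not independent evidence of its direction. The list median was -0.63, and it was -0.48, -0.84 and -0.52 in Cr_small lines 1 to 3 as differences from the control mean. In the parental cells it was -0.56, so that their response genes were also below the control lines.

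PMEPA1, a target of TGF-β that dampens its signal, fell 5.87-fold, from 9.21, 8.93 and 9.32 to 6.68, 6.43 and 6.68 (adjusted p = 0.000431), with the parental cells at 6.97. LTBP2, which binds latent growth factor complexes in the matrix, fell 3.03-fold, and FSTL3, a secreted binder of activin, 2.43-fold. NOX4, an NADPH oxidase that makes hydrogen peroxide, was the response gene that rose, from 4.77, 4.72 and 4.68 to 6.88, 7.02 and 6.94, by 4.68-fold (adjusted p = 7e-05). It was at 5.55 in the parental cells.

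In the related bone morphogenetic protein list 6 of 22 genes fell and 1 rose. The gene that rose, CHRDL1, a secreted antagonist of these ligands, was at 5.14, 5.46 and 4.94 in the control lines and at 8.94, 9.41 and 9.75 in the Cr_small lines, 18.2-fold higher (adjusted p = 5.89e-05). ID1, a target gene of the pathway, fell 2.49-fold, with an adjusted p of up to 0.101 without control_1. Of 13 hedgehog genes 1 rose and 2 fell. HHIP, a membrane protein that binds and holds hedgehog ligands, fell 12.8-fold, from 9.20, 8.89 and 8.49 to 5.21, 5.25 and 5.09 (adjusted p = 3.34e-05). SMO, the transducer of the signal, rose 1.75-fold (adjusted p = 0.00241). The parental cells were at 5.80 for HHIP and at 7.19 for SMO, both close to the Cr_small lines. Of 21 WNT inhibitors and targets DKK1 alone passed, a secreted inhibitor of the receptor complex, from 9.03, 9.15 and 8.63 to 10.90, 11.32 and 10.84, 4.24-fold higher (adjusted p = 0.000492).

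Some genes of a mesenchymal cell state were lower. Of 19, ZEB1, MMP2, SNAI1 and FOXC2 fell (21.1%, against 5.97% of all genes), all 4 held, and none rose. As a difference from the control mean, the list median was -0.18, -0.25 and -0.08 in Cr_small lines 1 to 3. In control lines 1 to 3 it was 0.04, -0.12 and 0.09, so that by the list median the groups overlapped. The summed linear level, which is weighted to the brightest genes, did not overlap. It was 25549 to 32816 in the control lines and 22197 to 25152 in the Cr_small lines. ZEB1, a repressor of epithelial genes, was at 7.28, 7.36 and 7.23 in the control lines and at 5.98, 5.54 and 5.57 in the Cr_small lines, 3.01-fold lower (adjusted p = 0.000931). SNAI1, a repressor of the same kind, was 2.55-fold lower (adjusted p = 0.000173). In the epithelial state list 2 of 18 rose, KRT8 by 1.57-fold and KRT18 by 1.75-fold, of which KRT18 held, and KRT8 had an adjusted p of 0.0714 without control_3. The summed linear level of that list was 8052 to 9970 in the control lines and 12019 to 15104 in the Cr_small lines. CDH1, which ZEB1 and SNAI1 repress in other cells, did not pass (adjusted p = 0.653), and its mean stayed near the low end of the array in both groups.

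Of 22 wound healing and coagulation genes 9 (40.9%) fell, against 5.97% of all genes, 5 of them in every refit. None rose, and the list median was -0.43. It was -0.39, -0.82 and -0.28 in Cr_small lines 1 to 3 as differences from the control mean. In the parental cells it was -0.58, so that over the list they were also below the control lines. The study named wound healing among its terms for falling genes on these same samples, so the list is not independent evidence of its direction. HBEGF, a growth factor of the epidermal growth factor (EGF) family, was at 11.40, 11.37 and 11.46 in the control lines and at 9.57, 9.47 and 9.82 in the Cr_small lines, 3.46-fold lower (adjusted p = 0.000173). EREG, another ligand of the EGF receptor, fell 4.42-fold (adjusted p = 0.000317). The parental cells, at 9.79 for HBEGF and 5.96 for EREG, were at the level of the Cr_small lines. ANXA3, an annexin, fell 4.63-fold, from 8.99, 9.60 and 9.14 to 6.84, 6.37 and 7.88, while the parental cells were at 9.74, above all control lines.

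**Figure D3:**
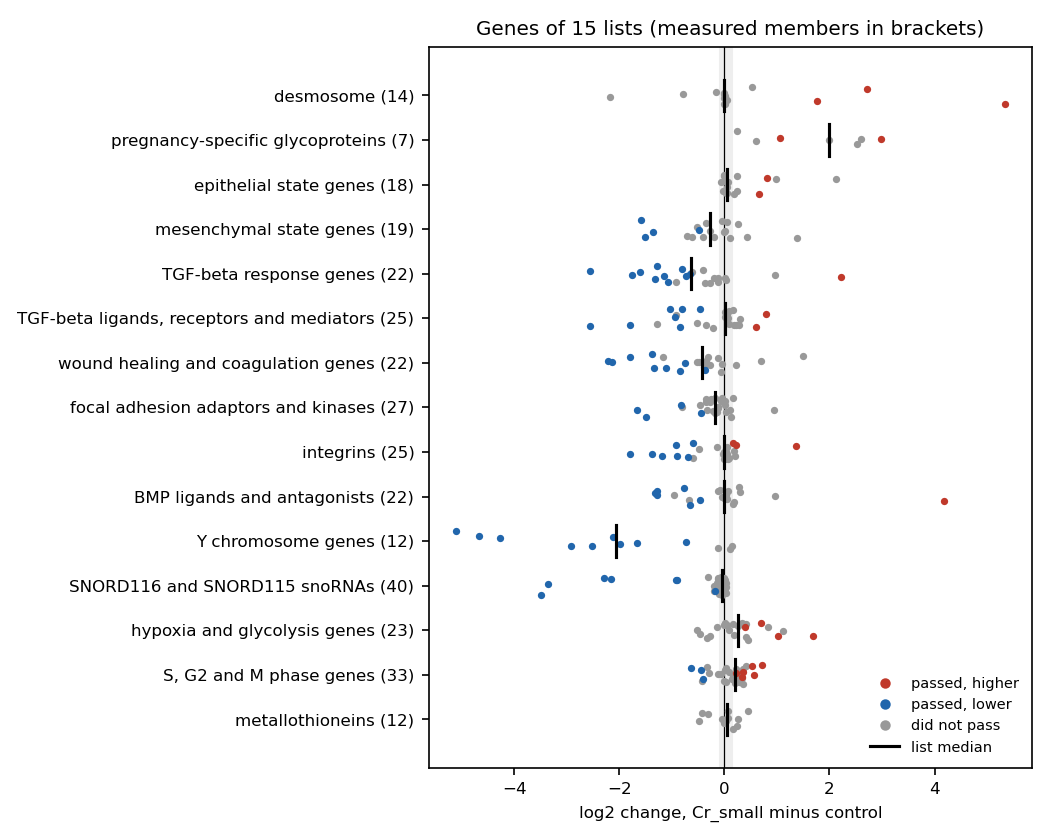
Log2 change (Cr_small minus control, x axis) of each measured gene in 15 gene lists, with the number of measured genes in brackets. Red and blue points passed the test higher or lower, grey points did not pass, black bars are list medians and the grey band holds the middle 50% of all genes. The TGF-β response and wound healing lists lie mostly left of 0, the Y chromosome list far left, and the desmosome list has its 3 red points far right of its median.

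Receptors and ligands of other pathways also changed. NPR3, the clearance receptor of natriuretic peptides, was at 9.56, 9.74 and 8.90 in the control lines and at 5.47, 6.03 and 5.48 in the Cr_small lines, 13.4-fold lower (adjusted p = 0.000313), with the parental cells at 9.38. NPPB, the precursor of B-type natriuretic peptide, rose 4.69-fold, from a control mean of 5.79 to a Cr_small mean of 8.02, with no overlap of the lines (adjusted p = 0.0131, and 0.0552 without control_3). ADM, adrenomedullin, a vasodilating peptide, rose 3.24-fold and held. These were the 3 of 15 genes of that list that passed. Of 37 guidance genes 3 rose and 6 fell. EPHA4, an ephrin receptor, rose from 5.47, 5.49 and 5.50 to 7.79, 8.07 and 7.88, by 5.39-fold (adjusted p = 0.000392), L1CAM, an adhesion molecule of axons, rose 4.43-fold (adjusted p = 7e-05) and SEMA3A, a repellent, fell 4.28-fold (adjusted p = 0.00205). TLR4, the receptor for bacterial lipopolysaccharide, fell from 9.54, 9.61 and 9.51 to 7.67, 5.72 and 6.09, by 8.32-fold (adjusted p = 0.00604). It was one of 3 falls among 24 Toll-like receptor and NF-κB genes, and TLR3, the receptor for double-stranded RNA, fell 1.81-fold. Of 22 interferon-stimulated genes 1 fell, IRF9, with an adjusted p of up to 0.129 without control_1.

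Further large changes lay outside the lists. CD24, a surface glycoprotein, fell 9.85-fold, from 9.16, 9.13 and 9.70 to 5.48, 5.74 and 6.88, and the parental cells were higher than all of these, at 10.55. DNER, a Notch ligand of neurons, fell 6.45-fold and IGFL1, of the IGF-like family, 6.35-fold. Among the rises, LYPD6B, a membrane-anchored LY6 protein, went from 5.87, 5.75 and 5.72 to 8.60, 8.36 and 8.73, 6.87-fold higher (adjusted p = 6.01e-05), STK26, a serine/threonine kinase, rose 5.93-fold, TFAP2C, a transcription factor of the AP-2 family, 5.07-fold and GFRA1, a receptor for glial cell line-derived neurotrophic factor, 4.96-fold. All of these calls held.

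EYA4, a transcriptional coactivator with phosphatase activity, was 12.8-fold lower. It was at 8.48, 8.38 and 8.56 in the control lines, at 4.74, 4.89 and 4.75 in the Cr_small lines and at 8.40 in the parental cells. The Cr_small values were thus near the level that 10% of all values do not exceed. Its relatives were looked up after this was seen. EYA1 fell from 6.79, 7.25 and 7.10 to 5.23, 4.99 and 5.08 (3.84-fold, adjusted p = 0.000147) and EYA2 from 7.56, 7.20 and 7.85 to 5.84, 5.84 and 5.43 (3.57-fold, adjusted p = 0.00165). EYA3 was the exception, with 7.27, 7.42 and 7.22 in the control lines and 8.13, 7.84 and 7.96 in the Cr_small lines, 1.6-fold higher (adjusted p = 0.0121, and 0.0514 without control_3). The parental cells were near the control lines for EYA1, EYA2 and EYA4, at 7.13, 7.34 and 8.40.

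Pregnancy-specific glycoproteins (PSG), secreted proteins of the placenta whose genes lie together on chromosome 19, were higher in every Cr_small line than in every control line for all 7 measured genes, but with a wide spread. The study singled out these genes on these same samples, so the list is not independent evidence of its direction. PSG2 was at 4.77, 4.95 and 4.68 in the control lines and at 6.47, 8.94 and 7.94 in the Cr_small lines, 7.89-fold higher (adjusted p = 0.0164). PSG3 went from 5.10, 5.05 and 5.62 to 6.23, 9.37 and 7.96 (6.04-fold by the means, adjusted p = 0.0771) and PSG4 from 6.24, 6.60 and 6.35 to 7.12, 9.95 and 8.07 (3.96-fold by the means, adjusted p = 0.0975). Cr_small_1 was the lowest and Cr_small_2 the highest of the 3 for each of these genes. PSG2 and PSG9 were those of the 7 that passed and neither held, with adjusted p of up to 0.0616 and 0.108 without control_3. In the parental cells PSG2 was at 4.77, with the control lines. Another pair of clusters, each of which the annotation assigns to 11 PSG symbols, passed and held. One went from 6.88, 6.93 and 6.94 to 8.93, 10.88 and 10.18, 8.45-fold higher (adjusted p = 0.00787), and the other from 6.24, 6.32 and 6.37 to 8.67, 10.30 and 9.58, 9.20-fold higher (adjusted p = 0.0041). In the parental cells they were at 7.98 and 7.53, above all control lines. The promoters of PSG3 (chr19:42740432-42740731, minus strand) and PSG4 (chr19:43205589-43205888, minus strand), in RefSeq for GRCh38.p14 as above, show how alike these copies are, with CG dinucleotides again in capitals.
PSG3: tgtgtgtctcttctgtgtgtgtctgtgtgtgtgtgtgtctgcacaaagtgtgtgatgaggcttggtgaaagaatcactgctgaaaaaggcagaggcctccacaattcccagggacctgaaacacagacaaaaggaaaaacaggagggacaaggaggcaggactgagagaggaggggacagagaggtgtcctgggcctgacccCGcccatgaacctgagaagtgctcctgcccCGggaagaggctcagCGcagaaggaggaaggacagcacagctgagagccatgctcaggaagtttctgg
PSG4: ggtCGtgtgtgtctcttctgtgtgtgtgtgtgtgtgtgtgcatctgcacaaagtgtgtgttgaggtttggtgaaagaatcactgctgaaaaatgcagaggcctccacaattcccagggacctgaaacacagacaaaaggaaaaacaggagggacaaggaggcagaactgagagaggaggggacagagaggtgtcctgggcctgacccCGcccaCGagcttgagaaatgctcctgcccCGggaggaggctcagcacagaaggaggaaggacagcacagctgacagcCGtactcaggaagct

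They were identical at 279 of 305 aligned positions (91.5%) and held 3 and 5 CG dinucleotides, where the middle 50% of all promoters held 9 to 32. Such near-identical copies can share probes, and the values of PSG genes are not independent of each other.

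Genes of the Y chromosome were near the low end of the array in the Cr_small lines. RPS4Y1, a ribosomal protein gene, was at 10.09, 10.77 and 10.05 in the control lines, at 5.17, 5.23 and 5.19 in the Cr_small lines and at 9.75 in the parental cells, a 34.3-fold fall (adjusted p = 9.71e-06). DDX3Y, an RNA helicase gene, fell 25.4-fold, from 9.54, 9.79 and 9.64 to 4.86, 5.17 and 4.94 (adjusted p = 2.26e-07). Of the 12 genes listed 9 (75%) fell and all 9 held, against 5.97% of all genes. Of their 11 X-linked partners 5 (45.5%) rose and 2 (18.2%) fell. Of all genes on the X chromosome 4.90% rose and 19.2% fell, so that the share of falls was near that of the chromosome. EIF1AX, an initiation factor gene whose Y partner EIF1AY fell 19.4-fold, rose 1.42-fold (adjusted p = 0.00415), TXLNG rose 1.81-fold (adjusted p = 0.000221) and USP9X, a deubiquitinase gene, fell 1.94-fold (adjusted p = 0.00497). For the small nucleolar RNAs of the imprinted region of chromosome 15, which are processed from the introns of a long host transcript, 7 of 40 (17.5%) fell, 5 of them in every refit. Of all genes 5.97% fell. The control means of 36 of the 40 were already under the array median, which leaves little room for a fall. The annotation assigns other clusters to several of these copies at once, so copies may share probes and their values may not be independent. SNORD116-15 was at 8.58, 8.98 and 8.03 in the control lines and at 4.84, 5.13 and 5.12 in the Cr_small lines, 11.3-fold lower (adjusted p = 0.000173), and the parental cells were at 9.05. A cluster shared by SNURF and SNRPN, at the start of the same host transcript, fell 2.76-fold (adjusted p = 0.000314).

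By chromosome, the calls were uneven. Of 574 genes on chromosome 15, 144 (25.1%) fell and 7 (1.22%) rose, of 708 on chromosome 4, 155 (21.9%) fell and 12 (1.69%) rose, and of 694 on the X chromosome 133 (19.2%) fell and 34 (4.90%) rose, against 5.97% and 5.04% of all genes. In contrast, 33 of 235 genes (14.0%) rose and 5 (2.13%) fell on chromosome 21, and 92 of 1064 (8.65%) rose and 17 fell on chromosome 17. Over expressed genes, those with a mean above 7, the median log2 difference from the control mean was -0.45, -0.43 and -0.38 on chromosome 4 in Cr_small lines 1 to 3, -0.40, -0.46 and -0.42 on chromosome 15, -0.37, -0.41 and -0.37 on the X chromosome and 0.30, 0.34 and 0.30 on chromosome 21. The 3 lines were close to each other on these 4 chromosomes. On chromosome 14 they were not, with -0.01, -0.43 and -0.02, nor on chromosome 3, with 0.20, -0.17 and -0.20, or on chromosome 13, with -0.06, -0.33 and -0.26. The number of copies of each chromosome was not measured, and its part in these values was not tested.

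**Figure D4:**
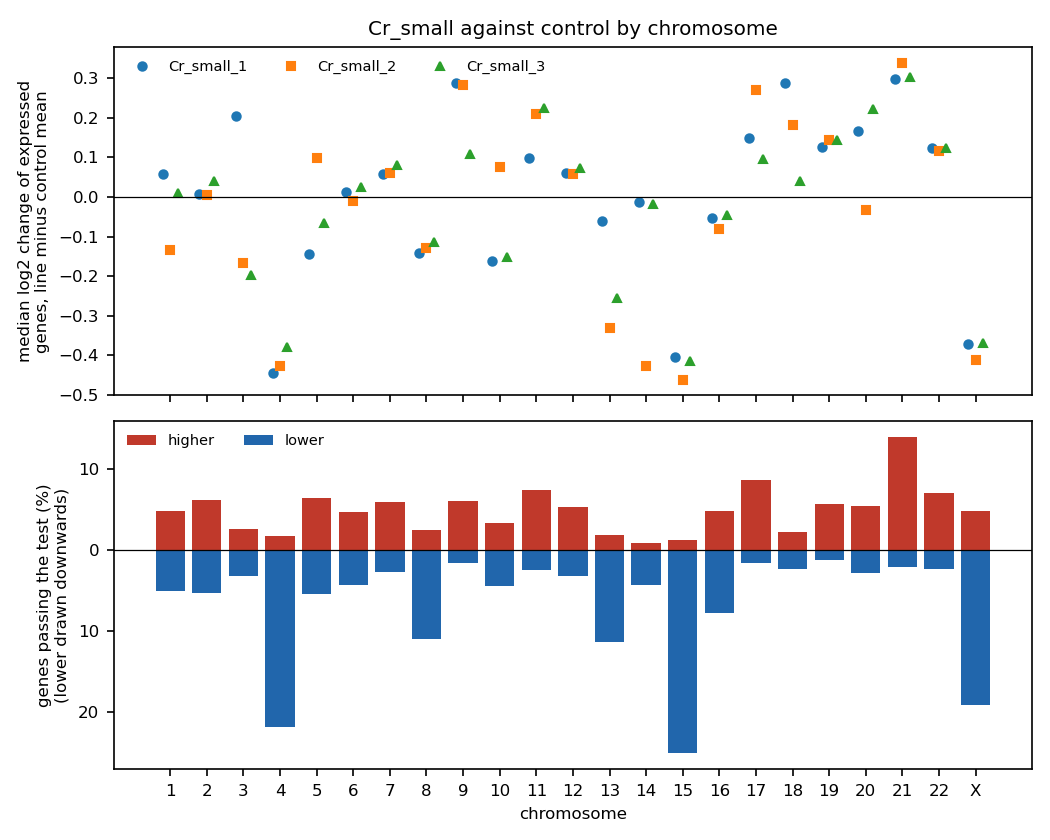
Upper panel, median log2 difference of expressed genes from the control mean (y axis) on each chromosome (x axis) in each Cr_small line. Lower panel, percent of genes that passed the test higher (red, up) or lower (blue, down). Chromosomes 4, 15 and X lie low and 21 high in all 3 lines, while Cr_small_2 is alone at -0.43 on chromosome 14 and Cr_small_1 alone at 0.20 on chromosome 3.

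Some of the genes with at least a 2-fold change were neighbours. Of the 220 genes at least 2-fold lower, 32 lay in 15 runs of neighbours in the order of measured genes, and of the 112 at least 2-fold higher 9 lay in 4 runs. How many runs would arise without regard to position was not tested. The runs that fell included Y chromosome genes, SNORD116 copies and genes of chromosomes 4, 15 and X, where many genes fell. The runs that rose were DSC3 with DSC2, ADAMTS1 with ADAMTS5, KIF5C with LYPD6B and LYPD6, and ZNF737 with ZNF626, and these genes were named after their values had been seen. The last pair belongs to the zinc finger genes of chromosome 19, most of which encode repressors of the KRAB family. That group was also set out after the values had been seen. Of 233 ZNF genes on this chromosome 28 (12.02%) rose and 2 (0.858%) fell, with a median log2 change of 0.14, against 46 (4.29%) and 14 (1.30%) of the 1073 other genes on it, with a median of 0.07. Of 246 ZNF genes on other chromosomes 12 (4.88%) rose and 18 (7.32%) fell. With 1 line left out, 17 to 20 of the 233 rose, and the lowest count, more than 1.5 times under 28, was that without control_1. ZNF506 was at 5.61, 5.35 and 5.68 in the control lines and at 7.56, 7.51 and 7.71 in the Cr_small lines, 4.13-fold higher (adjusted p = 6.8e-05), and ZNF93 went from a mean of 5.52 to one of 7.46, 3.83-fold higher (adjusted p = 0.00983). Zinc finger genes of this chromosome are alike in sequence, and probes of some may bind several. Of 64 histone genes, a group also set out after the values had been seen, 4 (6.25%) fell, near the 5.97% of all genes, and none rose. The median difference from the control mean was -0.14, 0.32 and -0.12 in control lines 1 to 3 and -0.05, -0.11 and -0.16 in Cr_small lines 1 to 3. Over the whole group the Cr_small lines were thus at the level of control_1 and control_3, and control_2 stood above. The gene H3C12 went from 8.59, 9.21 and 8.72 to 6.54, 6.43 and 7.24 (adjusted p = 0.00389).

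Small RNA loci were named after their values had been seen. Of 173 miRNA genes 2 (MIR429 and MIR210) rose and 6 fell, 4.62% in all, beside the 11% of all genes. A miRNA guides the silencing of messenger RNAs that pair with its seed, bases 2 to 8. The array reads RNA of the hairpin locus and not the mature miRNA. The mature sequences of the loci that fell, from RefSeq for GRCh38.p14, are shown with the seed in capitals. They lie at chr9:21512158-21512178 (miR-31-5p), chr11:122146568-122146589 (let-7a-5p), chr11:122152275-122152296 (miR-100-5p) and chr11:122099809-122099830 (miR-125b-5p) on the minus strand and at chr21:16539101-16539122 (miR-99a-5p) and chr17:59841273-59841294 (miR-21-5p) on the plus strand.
miR-31-5p: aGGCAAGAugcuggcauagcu
let-7a-5p: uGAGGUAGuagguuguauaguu
miR-100-5p: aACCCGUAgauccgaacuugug
miR-125b-5p: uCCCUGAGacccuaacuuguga
miR-99a-5p: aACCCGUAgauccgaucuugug
miR-21-5p: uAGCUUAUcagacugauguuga

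The seeds of miR-100-5p and miR-99a-5p are the same, while the loci lie on chromosomes 11 and 21. MIR31 was at 6.07, 5.77 and 5.96 in the control lines and at 5.27, 5.22 and 5.32 in the Cr_small lines, 1.58-fold lower (adjusted p = 0.00277). Its host transcript MIR31HG went from 8.37, 8.24 and 8.29 to 6.46, 5.98 and 6.77, 3.72-fold lower (adjusted p = 0.000923). MIRLET7A2 and MIR100, neighbours on chromosome 11, went from 6.45, 6.23 and 6.35 to 5.62, 5.71 and 5.79 (1.55-fold, adjusted p = 0.00464) and from 5.49, 5.40 and 5.32 to 4.95, 4.90 and 4.70 (1.47-fold, adjusted p = 0.00511). For each of these the groups did not overlap and the call held. The parental cells were at 5.48 for MIR31, 5.56 for MIRLET7A2 and 5.01 for MIR100, in each case under all control lines. MIR99A fell 1.20-fold, MIR125B1 1.21-fold and MIR21 1.51-fold, and their calls were lost with a line left out (adjusted p up to 0.105 without Cr_small_1, 0.132 without control_3 and 0.118 without Cr_small_1). MIR21 was at 9.29, 9.39 and 9.11 in the control lines and at 8.52, 8.63 and 8.86 in the Cr_small lines. The parental cells were at 8.25 for MIR21, below all of these lines. For MIR125B1 they were at 5.46, at the level of the Cr_small lines, and for MIR99A at 5.43, with the control lines.

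In most of the lists of growth, death and stress, genes passed at a share near or above the 11% of all genes, but many of the calls did not hold. Of 20 G1 genes 2 rose and 2 fell. CCND1, cyclin D1, rose, from 9.27, 8.67 and 8.89 to 10.06, 9.69 and 10.10 (adjusted p = 0.024, and up to 0.0831 without control_3), with the parental cells at 7.30, below all of these lines, and CCNE1, cyclin E1, 1.29-fold (adjusted p up to 0.081 without control_1), while RBL2, a pocket protein, fell 1.52-fold and CDKN2A, which encodes the p16 and p14ARF inhibitors, 1.22-fold. Both falls held and both rises did not. Of 33 S, G2 and M phase genes 6 rose and 3 fell, with a median of 0.20. One of the rises held, that of AURKA, a mitotic kinase, which was named after its stability had been seen (log2 change 0.35, adjusted p = 0.0035). All 3 falls held, and CENPE and CCNA2, a centromere kinesin and cyclin A2, fell 1.56-fold and 1.37-fold. Of 25 p53 targets PERP and RNF144B, an E3 ligase, rose, the latter 2.36-fold, and TP53INP1 fell (adjusted p up to 0.0627 without control_3). Both rises held. Among 33 genes of death receptors, the BCL2 family and caspases 1 rose, CASP4, an inflammatory caspase, by 2.86-fold, from 8.33, 8.67 and 8.20 to 10.08, 9.86 and 9.81 (adjusted p = 0.00159), and 4 fell, of which MCL1 (1.80-fold) and XIAP (1.48-fold), both inhibitors of apoptosis, held.

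Of 41 DNA repair genes 5 rose and 3 fell. FANCI, a gene of the Fanconi anemia pathway that repairs crosslinks, fell 1.56-fold and held, and MSH3, of mismatch repair, fell 1.76-fold with an adjusted p of 0.0393, and of up to 0.127 without control_3. None of the 5 rises held, LIG3 and MRE11 among them (adjusted p up to 0.0902 without Cr_small_2 and 0.0796 without control_3). Among 31 NRF2 and antioxidant genes GCLC, which makes glutathione, rose 1.37-fold and held, and NQO1, a quinone reductase, fell 1.85-fold (adjusted p = 0.0571 without control_1). None of 12 metallothionein genes, which bind metals and respond to them, passed by limma (2 at an unadjusted p under 0.05). In the hypoxia and glycolysis list 4 of 23 rose and none fell, with a median of 0.27, but ADM alone held, and HK2, hexokinase 2, had an adjusted p of up to 0.0901 without Cr_small_3. Of 8 aryl hydrocarbon receptor genes 2 fell and neither held (NQO1 and TIPARP, the latter with an adjusted p of up to 0.13 without control_3), and of 10 airway basal cell markers 1 fell, ITGB4.

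The parental array was measured once, so its place beside the 2 groups is a description and was not tested. On a scale with the control mean at 0 and the Cr_small mean at 1, the median place of the parental cells was 0.41 for the 112 genes at least 2-fold higher and 0.29 for the 220 at least 2-fold lower. Of the 112, 39 were under 0.25, near control, 23 over 0.75, near Cr_small, and 50 between. Of the 220, 101 were near control, 58 of them beyond the control mean, 38 were near Cr_small and 81 between. Thus for DSC3, GFRA1, L1CAM, NPPB, OLR1 and TIMP3, which were high in the Cr_small lines, the parental cells were high too and the control lines were the low ones, while CHST2, UGT8 and PSG2 were low in both. UGT8, an enzyme of galactolipid synthesis, was at 5.37, 5.48 and 5.34 in the control lines, at 7.86, 7.86 and 7.34 in the Cr_small lines and at 5.27 in the parental cells. GFRA1 was at 7.37, 6.79 and 6.06, at 9.37, 8.73 and 9.05 and at 9.36. Among the genes that fell, COL5A2, EYA4, NPR3, RPS4Y1 and DDX3Y were near the control level in the parental cells, and FAP, AMIGO2, IGFL1, EREG, PMEPA1 and HHIP were low in the parental cells too. FAP, a serine protease of activated fibroblasts, was at 6.59, 7.25 and 6.87 in the control lines, at 4.76, 4.74 and 4.75 in the Cr_small lines and at 5.05 in the parental cells.

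**Figure D5:**
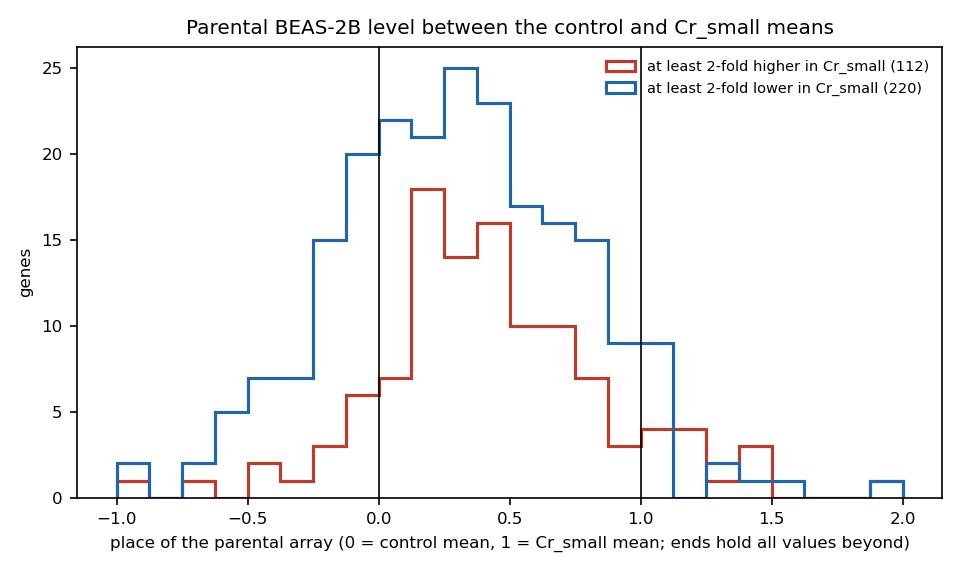
Number of genes (y axis) by the place of the parental array between the control mean (0) and the Cr_small mean (1) (x axis), for the 112 genes at least 2-fold higher (red) and the 220 at least 2-fold lower (blue) in the Cr_small lines. Most genes lie between the 2 means, with medians of 0.41 and 0.29.

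Some genes differed among the Cr_small lines themselves. TLR4, with a standard deviation of 1.03 over the 3 Cr_small lines and 0.05 over the control lines, was 1 of the 6 genes with at least a 2-fold change and the widest spread. AMIGO2, an adhesion protein, was at 10.10, 10.09 and 10.14 in the control lines and at 8.78, 6.58 and 7.98 in the Cr_small lines (5.03-fold lower, adjusted p = 0.0236, and up to 0.0778 without control_3). CDH6, a cadherin of the kidney and neural crest, was at 5.10, 5.43 and 5.41 and at 6.21, 7.46 and 8.02 (3.78-fold higher, adjusted p = 0.0395, and up to 0.121 without control_1). The others were PSG2, B3GNT5 and GALNT13, the last 2 glycosyltransferases whose calls were lost with a line left out (adjusted p up to 0.0642 and 0.0932, both without control_3). Over all genes the median standard deviation was 0.09 in both groups, but it was 0.26 in the Cr_small lines and 0.17 in the control lines for the genes at least 2-fold higher. A further 69 genes differed at least 2-fold by the means and did not pass, 32 higher and 37 lower, and in 24 and 32 of these the lines of the groups did not overlap. Over all genes the Cr_small lines lay above all control lines for 19.2% and below for 14.5%. Genes picked for a 2-fold difference of means are likely to show no overlap, so these counts are not evidence of a change.

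No gene differed between the Cr_small and Cr_large lines at an adjusted p under 0.05 by limma, and 969 (5.27%) did at an unadjusted p under 0.05. Both groups are compared with the same control lines, so their changes are given side by side. Among the genes at least 2-fold changed, ADGRL2, an adhesion receptor, was at 7.68, 7.50 and 8.32 in the Cr_small lines and at 6.72, 6.29 and 7.41 in the Cr_large lines, under control values of 9.84, 9.58 and 9.87. The difference between the Cr groups was 1.03 (95% interval 0.34 to 1.72). For ADAM12, a membrane metalloprotease, the difference was 0.92 (0.54 to 1.31), with 7.70, 7.75 and 8.09 in the Cr_small lines and 6.72, 7.01 and 7.05 in the Cr_large lines. For PERP the difference was -0.82 (-1.34 to -0.31), with the Cr_large lines at 9.17, 8.54 and 8.48. ADAMTS1 was at 8.53, 9.99 and 8.49 in the Cr_large lines, and its difference of 0.82 had an interval from -0.05 to 1.70. These genes are among the 6 with the largest differences between the Cr groups out of those at least 2-fold changed, none passed the test (adjusted p near 1 by limma), and several of their intervals reach past a 2-fold difference.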

How the data were processed

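Total RNA of the 10 cultures was hybridised to Affymetrix Human Gene 1.0 ST arrays. Per the study's methods and as deposited, the authors normalized the linear intensities by quantiles with RMA16 in GeneSpring 11; the methods also name a baseline transformation to the control median, which the deposited values do not show. Here log2 of the intensities was fitted with limma 3.58.1 (R 4.3.3), with a mean for each of 4 groups (6 residual degrees of freedom) and Benjamini-Hochberg adjustment over 28869 transcript clusters, and adjusted p-values in the report come from that fit. It was tested on simulated data, where 37 of 67 clusters changed 1.5-fold and 62 of 67 changed 2-fold were called, with 17 false calls among 180. The number of arrays limits the precision.

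Gene names came from the platform annotation, which gave 1 symbol to 19310 clusters, several to 1752 and none to 7807. The cluster with the highest mean stood for a gene, which left 18377 genes, and a few genes are not reported here. Figures and summaries used Python 3.11.15, pandas 2.3.3 and matplotlib 3.10.9. The 42 gene lists, the comparison and the rules were chosen with earlier results of these data known, and 2 further groups (ZNF and histone genes) after the values were seen. The shares of genes that passed in these lists are thus not independent evidence. Genes named were the 15 largest rises and falls, up to 5 called genes a list (up to 3 where none was called), those the study's text names, and the 6 with the widest spread in the Cr_small lines, the largest difference from Cr_large or the largest fold at each parental place. Exceptions are stated. Alternatives were the methods' t-test, other normalizations, filters, samples and moderation, the line number as a block and each line left out. Same-numbered lines did not deviate together (correlations from -0.145 to 0.098), so the numbers were not treated as pairs.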

Additional observations from a re-analysis of the deposited data

How the results depend on the processing

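No named gene changed direction under the alternatives run, which covered the counts of clusters and list genes and the named genes. The methods' t-test, at its unadjusted threshold, called 2929 transcript clusters higher and 2538 lower in place of 1093 and 1291. After Benjamini-Hochberg adjustment it called 161 and 214, of which 79 and 153 changed at least 1.5-fold and 38 and 84 at least 2-fold, in place of 435, 728, 126 and 256. With 1 line left out, 475 to 787 clusters were higher and 703 to 1176 lower, the lowest counts without control_3, and 268 to 357 were at least 1.5-fold higher, the lowest again without control_3. Of the list genes, 29 to 36 rose and 64 to 94 fell in place of 54 and 103, the lowest without control_3 and control_1. These fits rest on fewer lines, and a group left with a pair of lines shares the spread of the others. With the line number as a replicate block, 870 clusters were higher and 1097 lower, and 100 of the 112 and 210 of the 220 genes with a 2-fold change still passed. The other alternatives (median centring, quantile normalization again, trend and robust moderation, the 6 arrays alone, clusters with 1 symbol, the dimmest 25% left out) left every count of clusters within 1.5 times. Signal over background is also a limit, since 11 of the 12 genes at least 5-fold higher had a control mean under the array median.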
